A study of Mus musculus with 6 samples.

Results

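Mitochondrial ribosomal protein genes are the nuclear genes, with symbols of the form Mrpl (large subunit) or Mrps (small subunit), that encode the protein part of the ribosome inside mitochondria. They were taken as every gene with such a symbol on a probeset that the platform annotation pairs with a single gene. This gave 85 probesets and 77 genes out of 19938 named genes on the array, 48 of them Mrpl and 29 Mrps. Each gene was read by its brightest probeset over the 6 arrays. All 77 passed the filter on dim genes and were among the 14953 genes tested. A further probeset carries both Ccdc142 and Mrpl53, so Mrpl53 was not read.

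Expression was measured at postnatal day 7 in whole brain of male pups of the inbred strain C57BL/6J. The ethanol group received 20% ethanol in 0.15 M saline under the skin, as 2 doses of 2.5 g/kg given 2 h apart, and the saline group received 0.15 M saline alone. Brains of both groups were taken 4 h after the first injection. Each array held equal amounts of RNA from 3 males of different litters, with 2 ethanol arrays (numbered 2 and 4) and 4 saline arrays (1, 3, 5 and 6), from 18 mice in all. Dams were away during the injections in both groups, and ethanol pups had littermates in saline pools. Pools of the groups therefore share litters, a tie that the fit on treatment alone does not use. The pools average over animals, so the spread between arrays is a spread between pools. The comparison addressed which brain transcripts differ within hours of an ethanol dose at this age.

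The mitochondrial ribosome translates the few proteins encoded by mitochondrial DNA, all of them subunits of the oxidative phosphorylation complexes. Its RNAs come from mitochondrial DNA, while its proteins are made in the cytosol from nuclear genes and imported. Part of the proteins descend from bacterial ribosomal proteins and part are found only in mitochondria. The brain relies on oxidative phosphorylation, and inherited defects of single members are known to cause disease of the brain and other organs.

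No member passed the limma test of ethanol against saline, in either direction. Levels are log2 intensities, differences are ethanol minus saline on the log2 scale with the standard error (SE) of the fit, and a gene passed when its Benjamini-Hochberg adjusted p, over the 14953 genes tested, was below 0.05. Across all tested genes 9 passed as higher (0.0602%) and 3 as lower (0.0201%). The smallest adjusted p of a member was 0.140, for Mrps34. At an unadjusted p below 0.05 the limma fit held 1 member higher, against 3.85% of all tested genes, and 9 members lower. Those 9 are 11.7% of the members, against 8.44% of all tested genes. The alternative settings, among them array weights and other scalings, also called 0 members, and gave 8 to 13 at an unadjusted p below 0.05 on the lower side. The share of all tested genes there moved as well, from 5.32% without ethanol array 4, where the members numbered 8, to 10.5% without saline array 3, where they numbered 13.

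The differences were small and mostly below 0. Of the 77 members, 55 (71.4%) had a difference below 0, against 58.6% of all tested genes. The median was -0.037 for the members and -0.019 for all tested genes, while the median SE of a member was 0.069. The range ran from -0.25 for Mrps34 to 0.20 for Mrps14. The 95% interval of every member lay within 0.5 of 0 on the log2 scale, and 53 of the 77 estimates (68.8%) lay within 0.1 of 0, against 69.8% of all tested genes. Only 6 estimates were more than 0.2 from 0. The distance between these medians depended on the arrays and settings used. Without ethanol array 4 the members' median was -0.015 against -0.022 for all tested genes, and without saline array 6 it was -0.015 against -0.014. It was -0.049 against -0.014 without ethanol array 2, and -0.035 against -0.0011 with quantile normalization. With the dimmest 50% of genes left out it was -0.037 against -0.0059, and with no filter on dim genes -0.037 against -0.030. In whole-brain RNA, fewer cells of a type and less RNA per cell cannot be told apart.

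**Figure D1:**
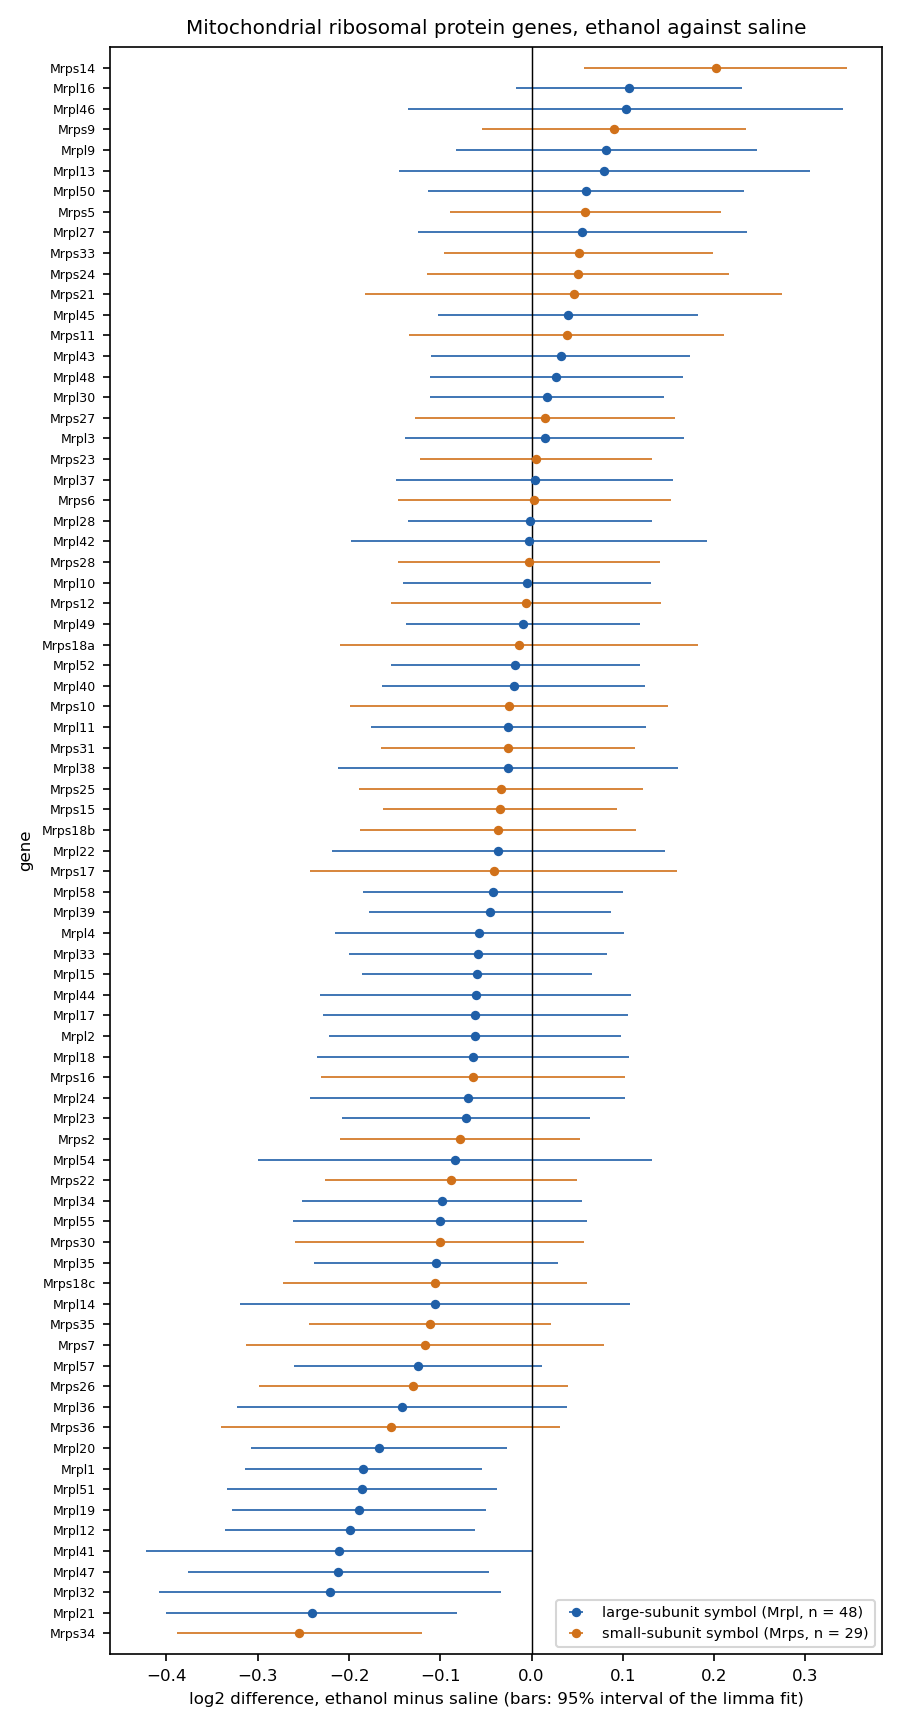
Log2 difference, ethanol minus saline, of the 77 mitochondrial ribosomal protein genes (rows, sorted), with the 95% interval of the limma fit over 2 ethanol and 4 saline arrays as bars; blue marks Mrpl and orange Mrps symbols. Most points lie left of 0, from -0.25 (Mrps34) to 0.20 (Mrps14), and no gene passed after adjustment over 14953 genes.

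The median over large-subunit genes lay lower than that over small-subunit genes, mainly on ethanol array 4. On single arrays the gap in median deviation from the saline mean was -0.0092 on ethanol array 2 and -0.049 on ethanol array 4. On the saline arrays it ran from -0.013 to 0.0097, a range that holds the value of ethanol array 2. The median difference was -0.058 over the 48 Mrpl genes and -0.026 over the 29 Mrps genes, a gap of -0.032. Of the 9 members at an unadjusted p below 0.05 on the lower side, 8 were Mrpl genes and 1 was Mrps34. These are 16.7% of the Mrpl and 3.45% of the Mrps genes, against 8.44% of all tested genes. Both ethanol arrays lay below all 4 saline arrays for 14 members (18.2%, against 14.9% of all tested genes), 11 of them Mrpl (22.9%) and 3 Mrps (10.3%). The opposite order, both ethanol arrays above all saline arrays, was seen for 2 members, Mrps14 and Mrpl16 (2.60%, against 7.68% of all tested genes). The gap between subunits changed with the arrays used. It was -0.049 without ethanol array 2, -0.0092 without ethanol array 4 and -0.012 without saline array 5. The difference between the subunits was not tested, since it is a summary over chosen genes.

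**Figure D2:**
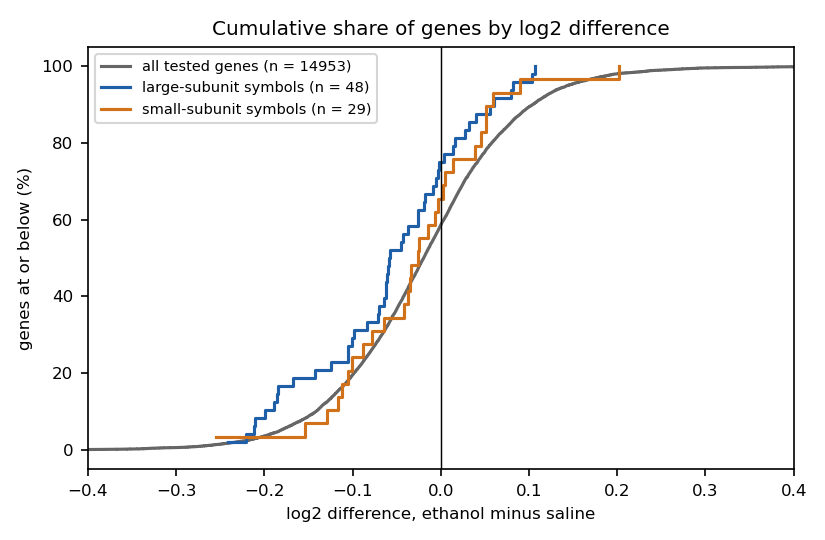
Cumulative share of genes (vertical axis, percent) at or below each log2 difference, ethanol minus saline (horizontal axis), for 48 Mrpl genes, 29 Mrps genes and all 14953 tested genes; the axis is shown from -0.4 to 0.4. The Mrpl curve lies left of the others near the middle, with medians of -0.058 for Mrpl, -0.026 for Mrps and -0.019 for all tested genes.

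Symbols do not always give the place of a protein. Mrps30 and Mrps18a sit in the large subunit of the mammalian mitochondrial ribosome, and the Mrps36 product is now known as a subunit of the oxoglutarate dehydrogenase complex. With genes sorted by place, 50 large-subunit genes had a median of -0.058 and 26 small-subunit genes a median of -0.025. Sorted by assigned family, 46 genes classed as shared with bacteria had a median of -0.058 and 30 genes classed as specific to mitochondria had a median of -0.026. The classes do not strictly follow descent, since the paralogs Mrps18a and Mrps18b were put in the mitochondrial class and Mrps18c in the bacterial class. The bacterial families held 7 genes (15.2%) at an unadjusted p below 0.05 on the lower side and the mitochondria-specific group held 2 (6.67%), against 8.44% of all tested genes. Both ethanol arrays lay below all saline arrays for 10 (21.7%) and 4 (13.3%) genes of these groups, against 14.9% of all tested genes.

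Promoters of the members are shown here because many of these genes are known targets of the factors NRF1, GABP (an ETS factor) and YY1, which act on nuclear genes for mitochondrial proteins. RefSeq promoter windows of build GRCm38.p6, from 250 bases before to 50 after the start, were matched for 68 members, and 9 had none. They were searched on both strands for the letters GCGCATGCG (NRF1), CCGGAAG (ETS), AAGATGGC (YY1) and CACGTG (E-box). The NRF1 letters were in 10.3% of member windows and 3.38% of the windows of 11449 tested genes. The ETS letters were in 33.8% against 15.6%, the YY1 letters in 17.6% against 4.11%, and the E-box letters in 7.35% against 9.66%. At least 1 of the 4 was in 54.4% of member windows and 28.6% of those of tested genes. The ETS and YY1 letters overlapped in 0 member windows, and in only 1 window of the tested genes (0.00873%). In 5 members the 250 bases before the start held at least 2 kinds of letters, and 3 of these are printed with the matches in capitals, Mrpl36 at chr13:73330759-73331008 (plus strand), Mrpl17 at chr7:105811088-105811337 (minus strand) and Mrpl22 at chr11:58171414-58171663 (plus strand). The capitals mark an E-box and a YY1 match in Mrpl36, and an ETS and an NRF1 match in Mrpl17 and in Mrpl22.
Mrpl36: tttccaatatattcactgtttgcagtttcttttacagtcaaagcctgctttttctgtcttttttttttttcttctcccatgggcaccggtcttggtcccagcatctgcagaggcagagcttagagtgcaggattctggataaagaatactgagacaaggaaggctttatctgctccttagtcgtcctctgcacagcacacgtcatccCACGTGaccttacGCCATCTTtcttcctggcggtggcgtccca
Mrpl17: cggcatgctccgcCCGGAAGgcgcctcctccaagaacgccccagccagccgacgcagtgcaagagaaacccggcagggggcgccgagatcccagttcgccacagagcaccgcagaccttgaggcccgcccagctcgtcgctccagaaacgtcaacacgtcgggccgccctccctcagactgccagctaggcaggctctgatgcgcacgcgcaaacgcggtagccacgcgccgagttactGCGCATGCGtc
Mrpl22: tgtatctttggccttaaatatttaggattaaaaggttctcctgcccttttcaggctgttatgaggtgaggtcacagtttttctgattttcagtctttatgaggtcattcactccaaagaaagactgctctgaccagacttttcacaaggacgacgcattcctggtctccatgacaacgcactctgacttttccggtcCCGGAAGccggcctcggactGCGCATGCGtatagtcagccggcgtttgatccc

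None of these 3 genes separated the groups: the differences were -0.14 ± 0.08 (SE) for Mrpl36, -0.062 ± 0.077 for Mrpl17 and -0.037 ± 0.084 for Mrpl22. Their arrays overlapped between groups, with Mrpl36 at 9.24 and 8.98 on the ethanol arrays and 9.17 to 9.39 on the saline arrays. The median difference was -0.037 over the 37 genes with at least 1 of the 4 kinds and -0.034 over the 31 without. It was -0.037 over the 23 genes with the ETS letters and -0.034 over the 45 without, and also -0.037 over the 7 with the NRF1 letters and -0.034 over the 61 without. It was -0.0076 over the 12 genes with the YY1 letters and -0.039 over the 56 without. Over the 5 genes with the E-box letters it was -0.11, and -0.034 over the 63 without. No test was made of these differences between small sets of members. Of the matched members with both ethanol arrays below all saline arrays, 6 held a match, among them Mrpl21 and Mrpl51 (ETS), Mrpl32 (NRF1 and YY1) and Mrpl20 (E-box), and 4 held none. The windows of 2 genes that stood apart between the groups and held none of these letters are printed for comparison: Mrpl12, with both ethanol arrays below the saline arrays, at chr11:120484387-120484636 (plus strand), and Mrps14, with both above, at chr1:160194965-160195214 (plus strand).
Mrpl12: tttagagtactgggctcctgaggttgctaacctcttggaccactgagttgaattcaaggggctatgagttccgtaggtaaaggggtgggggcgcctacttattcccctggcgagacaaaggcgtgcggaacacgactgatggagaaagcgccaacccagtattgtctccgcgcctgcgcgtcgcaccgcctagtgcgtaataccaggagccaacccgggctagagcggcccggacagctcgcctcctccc
Mrps14: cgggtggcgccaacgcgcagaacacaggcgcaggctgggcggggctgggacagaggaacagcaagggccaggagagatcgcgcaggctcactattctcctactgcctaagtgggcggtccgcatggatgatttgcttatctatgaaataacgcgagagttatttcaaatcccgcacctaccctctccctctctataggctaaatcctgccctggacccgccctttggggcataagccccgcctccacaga

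Many members start close to a gene on the other strand. Such a divergent start within 1000 bp was annotated for 23 of the 68 matched members (33.8%) and for 9.98% of the tested genes with a window. The 23 members form 22 pairs, because Mrpl46 and Mrps11, of different subunits, are paired with each other 42 bp apart. The bases between these 2 starts, at chr7:78783090-78783130, and between Mrpl21 and its partner Ighmbp2, a helicase gene, at chr19:3283011-3283041, are printed on the plus strand, as examples of the shortest shared stretches.
Mrpl46 and Mrps11: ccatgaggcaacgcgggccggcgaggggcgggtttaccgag
Ighmbp2 and Mrpl21: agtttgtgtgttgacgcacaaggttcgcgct

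Mrpl46 differed by 0.10 ± 0.11 and Mrps11 by 0.038 ± 0.079, both with overlapping groups. Mrpl21 differed by -0.24 ± 0.07 and Ighmbp2 by -0.040 ± 0.068, so the estimates of this pair were unequal in size. In 14 of the 20 pairs with both genes tested the signs were the same, with both genes below 0 in 12 pairs, and 0 partners passed the limma test. Most members (71.4%) and most tested genes (58.6%) lay below 0, so unrelated genes would often share a sign too. Whether these pairs agree more often than other pairs was not tested.

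Mrps34, a mitochondria-specific protein needed for a stable small subunit, had the smallest p of all members. It stood at 7.14 and 7.07 on ethanol arrays 2 and 4, and at 7.32, 7.33, 7.34 and 7.44 on saline arrays 1, 3, 5 and 6. Both ethanol arrays lay below every saline array. The difference was -0.25 ± 0.06 (SE), a level 0.838 of that with saline, with an unadjusted p of 0.00135 and an adjusted p of 0.140 in the limma fit. The adjusted p ranged from 0.0839 to 0.535 over the alternatives.

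Mrpl21, a large-subunit protein of a bacterial family, stood at 7.20 and 7.30 on the ethanol arrays and at 7.55, 7.39, 7.41 and 7.60 on saline arrays 1, 3, 5 and 6. The difference was -0.24 ± 0.07, with an adjusted p of 0.222 in the limma fit. The groups did not overlap, but the step between them was smaller than the range of the saline arrays.

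Mrpl12 forms the flexible stalk of the large subunit with Mrpl10, and its protein is also known to bind the mitochondrial RNA polymerase. It stood at 8.40 and 8.28 on the ethanol arrays and at 8.53, 8.48, 8.59 and 8.57 on the saline arrays, so the groups did not overlap. The difference was -0.20 ± 0.06, with an adjusted p of 0.240 in the limma fit. Mrpl10, its anchor on the ribosome, stood at 10.29 and 10.38 on the ethanol arrays and 10.27 to 10.38 on the saline arrays, a difference of -0.0054 ± 0.0624. The groups overlapped for Mrpl10, and its sign turned when arrays were centred on their medians.

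Mrpl1, the protein of the large subunit's other stalk, was the most even of the lower group. It stood at 9.06 and 9.04 on the ethanol arrays and at 9.19, 9.28, 9.20 and 9.27 on saline arrays 1, 3, 5 and 6. The difference was -0.18 ± 0.06, with an adjusted p of 0.247 in the limma fit. Saline array 3, which was low for most members, was the highest of the 6 arrays for Mrpl1.

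Mrpl19 and Mrpl20 are large-subunit proteins of bacterial families. Mrpl19 stood at 8.68 and 8.76 on the ethanol arrays and 8.83 to 8.97 on the saline arrays, a difference of -0.19 ± 0.06. Mrpl20 stood at 8.03 and 8.13 against 8.16 to 8.31, a difference of -0.17 ± 0.06. The groups of both genes touched closely without overlap, and the adjusted p values were 0.263 and 0.322 in the limma fit.

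Mrpl47, which lies near the exit of the protein tunnel, stood at 7.38 and 7.53 on the ethanol arrays and 7.56 to 7.79 on the saline arrays. Mrpl51, a mitochondria-specific protein, stood at 10.07 and 10.16 against 10.20 to 10.40. Mrpl32, which is cut to its mature form by the m-AAA protease before it joins the ribosome, stood at 9.21 and 8.96 against 9.22 to 9.47. In all 3 genes both ethanol arrays lay below the saline arrays, for Mrpl32 by only a small step on ethanol array 2. Their differences were -0.21 ± 0.08, -0.19 ± 0.07 and -0.22 ± 0.09, with adjusted p values of 0.285, 0.294 and 0.327 in the limma fit. Without ethanol array 4 the Mrpl32 difference was -0.096, and without ethanol array 2 it was -0.35.

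Mrpl41, a mitochondria-specific protein also described as a cell-cycle inhibitor, completed the 10 members with the smallest p on the lower side. Its groups overlapped, with ethanol arrays at 8.03 and 8.26 and saline arrays at 8.52, 8.20, 8.24 and 8.46. The difference was -0.21 ± 0.10, with an adjusted p of 0.407 in the limma fit. The remaining genes with both ethanol arrays below all saline arrays were Mrpl57, Mrps35, Mrpl35, Mrps2 and Mrpl15, with differences from -0.12 to -0.060.

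**Figure D3:**
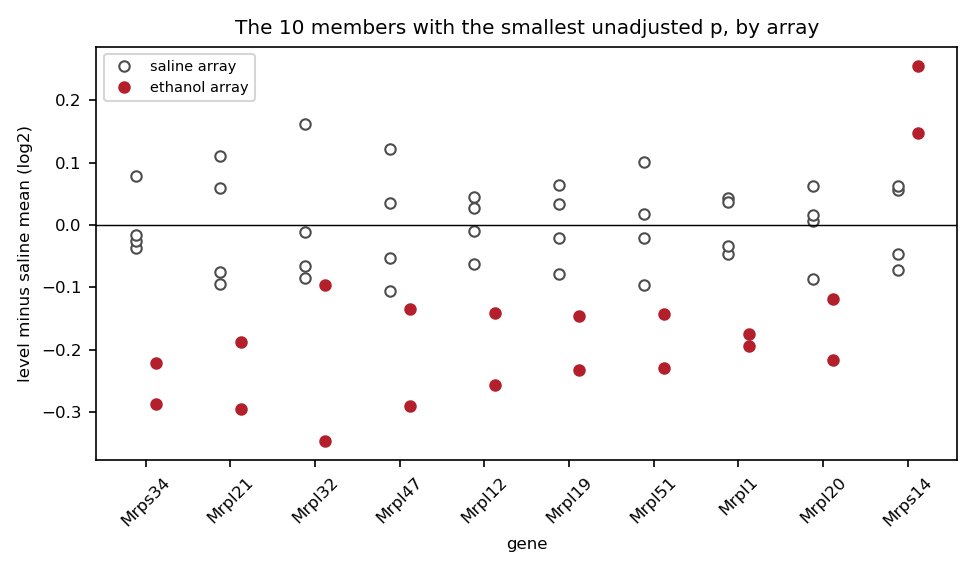
Level of each array minus the saline mean (log2, vertical axis) for the 10 members with the smallest unadjusted p; open circles are the 4 saline arrays and filled circles the 2 ethanol arrays. In 9 genes both ethanol arrays lie below all saline arrays, and in Mrps14 both lie above.

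Mrps14, a small-subunit protein of a bacterial family that sits in the head of the subunit, was the member with the largest difference above 0. It stood at 7.26 and 7.15 on ethanol arrays 2 and 4, and at 7.06, 6.93, 6.96 and 7.06 on saline arrays 1, 3, 5 and 6. Both ethanol arrays lay above every saline array. The difference was 0.20 ± 0.07, a 1.15-fold level, with an unadjusted p of 0.0101 and an adjusted p of 0.249 in the limma fit. Mrpl16, a large-subunit protein near the transfer RNA sites, stood at 8.88 and 8.91 against 8.77 to 8.82, again with no overlap. Its difference was 0.11 ± 0.06, with an adjusted p of 0.481 in the limma fit.

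The other 8 of the 10 members with the smallest p on the higher side were Mrps9, Mrpl9, Mrpl46, Mrps5, Mrpl13, Mrps33, Mrpl50 and Mrpl27. In each the groups overlapped, and the differences ran from 0.052 for Mrps33 to 0.10 for Mrpl46. Mrpl46 and Mrpl13 had wide errors, 0.11 and 0.10, and saline array 3 stood low in both, at 7.20 against 7.47 to 7.67 and at 8.03 against 8.35 to 8.45. Without saline array 3 the Mrpl13 difference was -0.013 and the Mrpl27 difference was -0.0068.

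Members with a known place or with close relatives were compared side by side. Mrps12, a protein of the decoding centre, differed by -0.0062 ± 0.0678 and was dim, at 6.88 and 6.72 on the ethanol arrays and 6.77 to 6.89 on the saline arrays. Mrpl45, which tethers the ribosome to the inner membrane, differed by 0.040 ± 0.065. Mrpl44, which has a fold like ribonuclease III, differed by -0.061 ± 0.078. All 3 overlapped between groups.

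The 3 paralogs Mrps18a, Mrps18b and Mrps18c take different places in the ribosome. Their differences were -0.014 ± 0.090, -0.037 ± 0.069 and -0.11 ± 0.08. Mrps18c stood at 9.17 and 9.09 on the ethanol arrays and 9.10 to 9.38 on the saline arrays, so its groups overlapped as those of the other two did. Mrpl37 and Mrps30 are relatives that both sit in the large subunit. Mrpl37 differed by 0.0033 ± 0.0696 and Mrps30 by -0.10 ± 0.07, with overlapping groups. Mrps36, the gene that no longer counts as ribosomal, differed by -0.15 ± 0.09, with ethanol arrays at 8.82 and 8.54 and saline arrays from 8.74 to 8.95.

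For 8 members a further probeset gave a check on the value used. In 7 of them both probesets had the same sign, and in Mrps5 they did not. Among the 7, the second probeset of Mrps33 was close to 0, at 0.00074 ± 0.066. The second of Mrpl27 differed by 0.22 ± 0.11, against 0.056 ± 0.083 for the one used, both with overlapping groups. The brighter Mrps5 probeset, used here, stood at 9.48 and 9.59 on the ethanol arrays and 9.37 to 9.56 on the saline arrays, a difference of 0.059 ± 0.068. The other stood at 9.15 and 9.05 against 9.22 to 9.26, a difference of -0.15 ± 0.06 with an unadjusted p of 0.0303 in a limma fit that was not adjusted for this choice. The brighter Mrps5 probeset overlapped between groups, and the other had both ethanol arrays below all saline arrays. The second probesets of Mrpl47 and Mrpl51, which had stood apart between groups, differed by -0.063 ± 0.060 and -0.060 ± 0.083, with overlap. The Mrpl47 one was at 4.81, within the range of background. The second probeset of Mrpl41 had both ethanol arrays below all saline arrays, at 6.97 and 7.03 against 7.08 to 7.25, a difference of -0.13 ± 0.07. Ribosomal protein genes have processed copies elsewhere in the genome, and which probesets also match such copies was not tested.

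**Figure D4:**
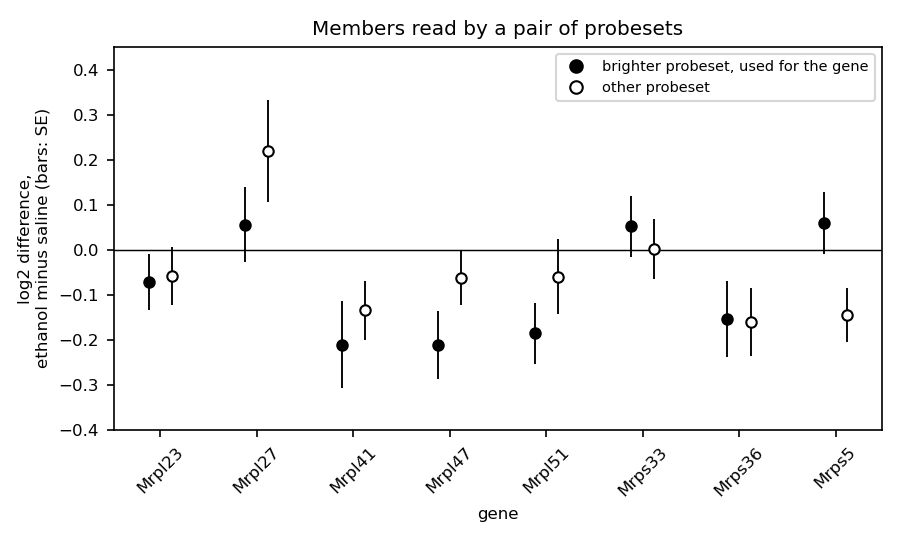
Log2 difference, ethanol minus saline, with its SE as bar, for the 8 members read by a pair of probesets; filled circles are the brighter probeset, used for the gene, and open circles the other. The pair lies on the same side of 0 in 7 genes, with the second Mrps33 probeset at 0.00074, and on opposite sides in Mrps5 (0.059 and -0.15).

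The arrays of a group also differed from each other in the level of the members. The median deviation of the 77 members from their saline means was -0.015 on ethanol array 2 and -0.049 on ethanol array 4. It was 0.018, -0.082, 0.020 and 0.033 on saline arrays 1, 3, 5 and 6. Saline array 3 was lower than both ethanol arrays, with 63 of 77 members (81.8%) below the saline mean, against 67.9% of all tested genes. It was the lowest of the 6 arrays for 34 members (44.2%), against 36.9% of all tested genes. On ethanol array 2, 50 members (64.9%) were below the saline mean, against 58.6% of all tested genes. On ethanol array 4 it was 51 members (66.2%), against 55.5%.

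The subunits parted on ethanol array 4 more than on the other arrays. The median deviation there was -0.077 for Mrpl genes and -0.028 for Mrps genes. On ethanol array 2 the medians were -0.020 and -0.011. On saline array 3 they were -0.085 and -0.072, both below the ethanol arrays for the respective subunit. Without ethanol array 4 the Mrpl median was -0.020, against -0.022 for all tested genes. Without saline array 3 the Mrpl median was -0.078 against -0.032, and 26 members (33.8%, against 23.8% of all tested genes) had both ethanol arrays below the remaining saline arrays. With ethanol array 4 alone, 29 members (37.7%) lay below all saline arrays, against 28.1% of all tested genes.

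**Figure D5:**
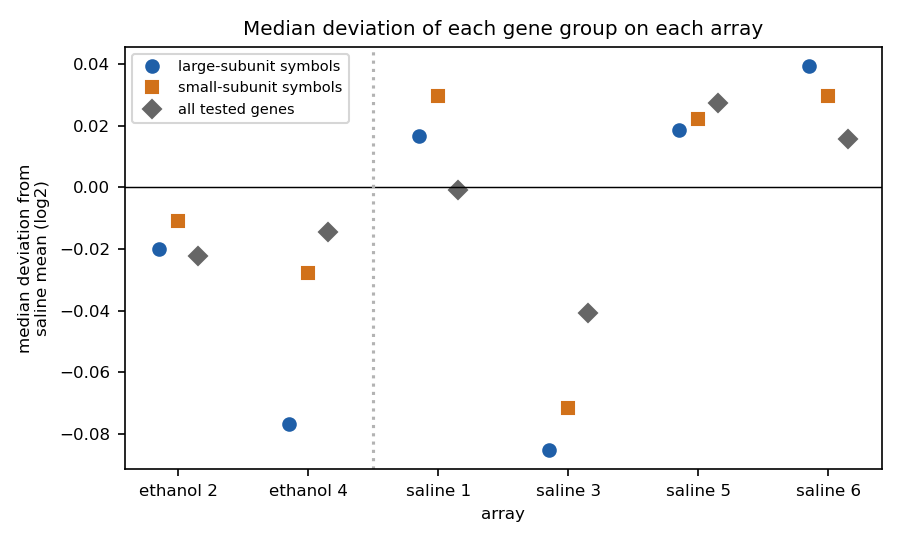
Median deviation from the saline mean (log2, vertical axis) of 48 Mrpl genes, 29 Mrps genes and all tested genes on each of the 6 arrays (horizontal axis). Saline array 3 is low for all 3 groups, at -0.085 for Mrpl and -0.072 for Mrps, and ethanol array 4 is low mainly for Mrpl, at -0.077.

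The arrays were close to each other as a whole. Over the tested genes the pairs of arrays correlated with r from 0.995 to 0.999, a description across genes that are not independent. Array weights estimated by limma were lowest for saline array 3, at 0.370, and 0.959 to 1.70 on the others. The defining markers of neurons, astrocytes, the oligodendrocyte lineage, microglia, endothelium and choroid plexus were above background on the arrays, and 0 of the listed markers passed the test. Olig2, a transcription factor of the oligodendrocyte lineage, stood at 9.41 and 9.29 on the ethanol arrays and 9.62 to 9.76 on the saline arrays. Its difference of -0.32 ± 0.07, with an adjusted p of 0.0827 in the limma fit, was larger than that of any member, while Pdgfra and Mbp of the same list differed by 0.014 and 0.050. The mean level of the 4 pituitary markers was 5.45 to 6.25 on the ethanol arrays and 6.47 to 6.86 on the saline arrays, with Gh and Cga at differences of -1.52 and -1.20 and adjusted p values of 0.162 and 0.0630 in the limma fit, while Prl and Pomc were at background. Of the liver markers, Alb (5.13) and Apoa1 (5.87) were at background, and only Ttr, which choroid plexus also expresses, was above it, so that the list's mean level of 7.92 to 7.97 with ethanol and 7.98 to 8.06 with saline was set by Ttr. The skeletal muscle markers had a mean level of 6.23 to 6.25 with ethanol and 6.31 to 6.45 with saline, with Myh8 (5.48) at background. The 1 blood marker read, Alas2, was at 8.14 to 8.74 with ethanol and 8.28 to 8.998 with saline. The part of these tissues and cell types in the members' differences was not tested. Most members were well expressed, and only Mrps26, at 6.14, lay below the 95th percentile of olfactory and vomeronasal receptor genes, 6.20, which served as a guide to background.

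The rest of the mitochondrial translation apparatus held no gene that passed the limma test either. The list of mitoribosome proteins with other names held 5 tested genes, including Oxa1l, which encodes a membrane insertase rather than a ribosomal protein. All 5 had a difference below 0, with a median of -0.046. Of these, Chchd1 (-0.0002 ± 0.0708) and Oxa1l (-0.0049 ± 0.0593) were well within their SE of 0. Among all tested genes 58.6% were below 0, with a median of -0.019. Gadd45gip1, Dap3 and Ptcd3 differed by -0.10 ± 0.08, -0.057 ± 0.073 and -0.046 ± 0.060, each with overlapping groups. Of 24 assembly factors, 16 (66.7%) were below 0, with a median of -0.039. The largest difference there was that of Mrm2, a methyltransferase of the large ribosomal RNA, at -0.30 ± 0.08. Mrm2 stood at 6.14 and 5.83 on the ethanol arrays and 6.26 to 6.32 on the saline arrays, with an adjusted p of 0.164 in the limma fit. The ethanol arrays lay far apart from each other, and the mean level of Mrm2, 6.19, was just below the guide to background of 6.20. The helicase gene Ddx28 differed by -0.15 ± 0.07 and Nsun4, a methyltransferase of the small ribosomal RNA, by 0.13 ± 0.06. Ddx28, at a mean level of 5.85, also lay below that guide.

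Of 14 tested translation factors, 7 (50%) were below 0, against 58.6% of all tested genes. Of these, 3 had an unadjusted p below 0.05 in the limma fit, which is 21.4% of the list against 8.44% of all tested genes. Tsfm, the exchange factor of the elongation factor Tufm, stood at 7.55 and 7.57 on the ethanol arrays and at 7.79, 7.78, 7.85 and 7.85 on the saline arrays. Both ethanol arrays lay well below the saline arrays, with a difference of -0.26 ± 0.06 and an adjusted p of 0.109 in the limma fit. Mtrf1l, a release factor, differed by -0.26 ± 0.07, and Slirp, which binds mitochondrial messenger RNA with Lrpprc, by -0.15 ± 0.06. Their adjusted p values were 0.173 and 0.336 in the limma fit. The list as a whole had a median of -0.012, close to that of all tested genes. In the same list Gfm1 and Tufm differed by -0.14 ± 0.07 and -0.11 ± 0.07, and the initiation factors Mtif2 and Mtif3 by 0.02 and 0.05. Both ethanol arrays lay below all saline arrays for 4 of the 14 genes (28.6%), against 14.9% of all tested genes. Both lay above for 1 (7.14%), against 7.68%.

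Of 19 tested mitochondrial aminoacyl-tRNA synthetase genes and their partners, 12 (63.2%) were below 0, against 58.6% of all tested genes. Their median was -0.044. Gatc, a subunit of the amidotransferase that makes glutaminyl-tRNA, stood at 11.17 on both ethanol arrays and 11.30 to 11.38 on the saline arrays, a difference of -0.17 ± 0.06. Yars2 and Wars2 differed by -0.15 ± 0.07 and -0.14 ± 0.07. Of 10 genes for transcription and replication of mitochondrial DNA, 7 (70.0%) were below 0. Twnk, the helicase, and Primpol, a primase, differed by 0.15 ± 0.06 and 0.21 ± 0.09, while Tefm, an elongation factor of the mitochondrial RNA polymerase, differed by -0.11 ± 0.07. All of these kept adjusted p values above the threshold in the limma fit, 0.266 for Gatc being the smallest. The mean level of Twnk, 6.02, was below the guide to background of 6.20.

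Of 13 regulators of nuclear mitochondrial genes, 10 (76.9%) were below 0, against 58.6% of all tested genes. Their median was -0.052, against -0.019. Myc, a growth-promoting transcription factor that acts on many ribosome genes, stood at 9.54 and 9.35 on the ethanol arrays and at 10.08, 9.58, 9.74 and 9.80 on saline arrays 1, 3, 5 and 6. The groups were separated by a small step between ethanol array 2 and saline array 3, and the difference was -0.36 ± 0.11 with an adjusted p of 0.232 in the limma fit. Pprc1, a coactivator related to Ppargc1a, differed by -0.28 ± 0.13, and Gabpa, the DNA-binding subunit of GABP, by 0.17 ± 0.08. The groups overlapped for Pprc1 and Gabpa.

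Of the products of the mitochondrial genome, 2 of the 15 listed genes were read, both messenger RNAs. COX2 stood at 14.03 and 14.31 on the ethanol arrays and 14.09 to 14.30 on the saline arrays, a difference of -0.016 ± 0.083. ND3 stood at 13.52 and 13.88 against 13.60 to 13.66, a difference of 0.069 ± 0.085. Ethanol array 4 was above and ethanol array 2 below the saline arrays for both genes, so the sign of each depended on the array.

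The cytosolic ribosome and respiratory complex I served as comparison. Over 57 tested cytosolic ribosomal protein genes the median was -0.012, with 56.1% below 0. Over 34 complex I subunits it was also -0.012, with 61.8% below 0. The members' 71.4% and median of -0.037 stand beside these as descriptions, with no test between the lists. Cytosolic genes held 2 (3.51%) at an unadjusted p below 0.05 on the lower side and complex I genes held 0. The share of all tested genes was 8.44%. Rpl12, a stalk protein of the cytosolic large subunit, stood at 7.21 and 6.89 on the ethanol arrays and 7.37 to 7.57 on the saline arrays. Its difference was -0.44 ± 0.09 with an adjusted p of 0.0827 in the limma fit, and it passed with array weights, at 0.0450, and with the dimmest 50% of genes left out, at 0.0484. Rplp2, another stalk protein, and Rpl30 differed by -0.16 ± 0.06 and -0.13 ± 0.06. Among complex I genes the smallest p values belonged to Ndufb2, at -0.15 ± 0.07, Ndufa4, a protein now assigned to complex IV, at 0.11 ± 0.06, and Ndufv3, at -0.11 ± 0.06.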

How the data were processed

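For each of the 6 Affymetrix gene arrays the authors deposited a single value per probeset. The deposited values were taken as log2 intensities from their range, 4.10 to 14.9, since no log base is stated. The submitters' processing notes name Partek 6.6. Background correction and normalization were not given in the sources used here. Values were therefore used as deposited. Of 35556 probesets, 21789 carry 1 gene symbol, 1621 several and 12146 none, and each of 19938 genes was read by its brightest probeset.

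The dimmest 25% of genes were left out (mean up to 5.56, 4985 genes). The others were fitted with limma 3.58.1 in R 4.3.3, on treatment alone, with 4 residual and 8.10 prior degrees of freedom, two-sided, with Benjamini-Hochberg adjustment at 0.05. The number of arrays limits the precision, and p-values measure the spread between pools.

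Members and lists were chosen with earlier results of these data known. Genes named were all that passed, the 10 members with the smallest p on each side, members with a known structural or paralog role, members whose probesets differ in sign, and up to 3 genes of each other list with the smallest p. Mrps11, Mtif2, Mtif3, Gfm1, Tufm, Ighmbp2, the members of the printed promoters and those with separated arrays were added after values were seen. Alternatives were other dim filters, the mean of probesets, 2 other scalings, a trended prior, array weights and leaving out each array.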

Additional observations from a re-analysis of the deposited data

Results flagged for a closer look

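In the groups of 4 saline arrays, 5 of 60 sets of values held an array whose gap to the nearest other array, as a share of the whole range, was above Dixon's 95% critical value. Chance puts about 1 in 20 groups above it. For Mrps34 the share was 0.832, with saline array 6 at 7.44 above the other saline arrays at 7.32 to 7.34 and farther from the ethanol arrays. For Mrps12 it was 0.863, with saline array 5 at 6.89 above the others at 6.77 to 6.79. For Ndufa4 it was 0.981, with saline array 1 at 10.38 above the others at 10.31. The median deviation of the members had a share of 0.866 and that of the Mrps genes a share of 0.927, both because saline array 3 stood low, at -0.082 and -0.072. Without saline array 3 the members' median difference was -0.064, against -0.032 for all tested genes.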

How the results depend on the processing

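No paired analysis was possible because the labels do not say which ethanol and saline pools share litters and the groups share no replicate number. The litters in common were therefore not modelled. Under each alternative 0 members were called. Calls over all genes ranged from 3 to 23 higher, against 9 in the reported fit, and from 1 to 35 lower, against 3, with 35 under array weights, 30 without the dimmest 50% of genes and 20 with a trended prior. With the dimmest 50% left out, 71 members were tested. Of these, 0 were higher at an unadjusted p below 0.05, against 4.89% of all genes tested there. Both ethanol arrays lay above all saline arrays for 1 member (1.41%), against 9.39%. Under that filter and under array weights 1 cytosolic ribosomal protein gene was called lower, Rpl12 at -0.44 (adjusted p 0.0484) and -0.46 (0.0450).

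Leaving out 1 array, members higher at an unadjusted p below 0.05 numbered 0 to 1, members with both ethanol arrays above all saline arrays 2 to 11, and below 14 to 29. With any 1 array left out, the gap between large and small subunit ranged from -0.049 to -0.0092. The median of translation factors ranged from -0.059 to 0.026, and that of the mitochondrially encoded genes from -0.13 to 0.19. The members' median stayed below 0, from -0.064 to -0.015, and so did that of all tested genes, from -0.032 to -0.011.

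Signs turned for Mrps5 with the mean of its probesets (-0.043), for Mrpl10 (0.0015) and Mrps12 (0.00067) with centred arrays, for Mrps12 with quantile normalization (0.021) and for Mrpl37 with array weights (-0.018). With 1 array left out, ranges spanned 0 for Mrpl46 (-0.0037 to 0.21), Mrpl13 (-0.013 to 0.16), Mrps33 (-0.042 to 0.15), Mrpl50 (-0.015 to 0.13), Mrpl27 (-0.014 to 0.13), Mrpl10 (-0.052 to 0.041), Mrpl44 (-0.18 to 0.053), Mrps12 (-0.090 to 0.077), Mrps18a (-0.093 to 0.022), Mrpl37 (-0.033 to 0.044), Tefm (-0.22 to 0.00026), ND3 (-0.11 to 0.25) and COX2 (-0.16 to 0.12). The cause was not tested. The small number of arrays limits every value.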
